A study of Mus musculus with 12 samples.

Results

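The 2 corticosteroid receptor genes and 8 of their known responsive genes were followed over 1 day in the prefrontal cortex of the mouse. The receptors were Nr3c1, the glucocorticoid receptor, and Nr3c2, the mineralocorticoid receptor. The responsive genes were Fkbp5, Sgk1, Tsc22d3, Zbtb16, Cdkn1a, Errfi1, Pdk4 and Ddit4. All probe sets annotated to one of these genes alone were taken, which gave 24 of 45037 once the array's controls were left out. Of the 24, 22 were bright enough to be tested, among 24546 tested probe sets in all. Nr3c1 had 6 probe sets, Tsc22d3 4, Fkbp5 and Zbtb16 3 each, Cdkn1a and Errfi1 2 each, and the remaining genes 1 each.

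The mice were C57BL/6J animals bought at 10 weeks of age and kept under a cycle of equal light and dark phases (LD 12:12), with no gene altered and no treatment. Lights were on at ZT3 and ZT9 and off at ZT15 and ZT21, where ZT, Zeitgeber time, counts hours from lights on. There were 3 mice at each time, each measured on an Affymetrix Mouse430_v2 array of its own, so that n = 3 separate animals per time. The tissue was the anterior cortex without the olfactory bulb and with deeper structures removed, so all of its cell types contributed RNA. Sex was not given in the sources used here. In such tissue, fewer cells of a type and less RNA per cell cannot be told apart.

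Corticosterone, the main glucocorticoid of mice, is secreted by the adrenal cortex with a daily rhythm that in nocturnal rodents peaks near lights off. It enters brain cells and binds both receptors, the mineralocorticoid receptor with the higher affinity. The bound receptors move to the nucleus and bind DNA at glucocorticoid response elements, which raises or lowers the transcription of nearby genes. No hormone level was measured here. The 4 times were therefore also grouped as dusk, ZT9 and ZT15 on either side of lights off, and dawn, ZT21 and ZT3 on either side of lights on.

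Start-site sequences from RefSeq (GRCm38.p6) matched 8 of the 10 genes, all but Nr3c1 and Zbtb16, with 17 windows of the 250 bases before a start. The perfect palindrome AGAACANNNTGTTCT, the ideal glucocorticoid response element, was searched because the genes were chosen as receptor targets. It reads the same on both strands. One of the 17 windows held it, before a Sgk1 start at chr10:21993640-21993889 on the plus strand, against 3 of all 32851 windows of this length (0.00913%). Its left arm, AGAACA on either strand, stood in 4 of the 17 windows, 3 of Sgk1 and 1 of Tsc22d3, and in 16.1% of all windows. The E-box CACGTG, bound by clock activators, stood in the Fkbp5 window at chr17:28486150-28486399 on the minus strand and in the same Sgk1 window, and in 6.02% of all windows. The cAMP response element TGACGTCA stood in 1 Errfi1 window, chr4:150854820-150855069 on the plus strand, and in 1.55% of all windows. The windows of Sgk1, Fkbp5 and Errfi1 are shown because the daily patterns of these genes are described in detail, and capitals mark the matched element, which began 189, 169 and 51 bases before the start in this order. A match is a description of letters and no evidence of binding.
Sgk1: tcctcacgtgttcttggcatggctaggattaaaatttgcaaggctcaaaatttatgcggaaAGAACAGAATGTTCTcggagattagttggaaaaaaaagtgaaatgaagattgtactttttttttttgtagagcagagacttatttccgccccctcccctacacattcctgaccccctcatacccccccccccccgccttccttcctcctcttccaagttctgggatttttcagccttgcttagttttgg
Fkbp5: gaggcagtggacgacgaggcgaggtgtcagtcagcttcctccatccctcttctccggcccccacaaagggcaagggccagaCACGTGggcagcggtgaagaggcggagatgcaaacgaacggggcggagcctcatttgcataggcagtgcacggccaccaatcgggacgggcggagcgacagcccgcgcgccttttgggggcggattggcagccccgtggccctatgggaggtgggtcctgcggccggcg
Errfi1: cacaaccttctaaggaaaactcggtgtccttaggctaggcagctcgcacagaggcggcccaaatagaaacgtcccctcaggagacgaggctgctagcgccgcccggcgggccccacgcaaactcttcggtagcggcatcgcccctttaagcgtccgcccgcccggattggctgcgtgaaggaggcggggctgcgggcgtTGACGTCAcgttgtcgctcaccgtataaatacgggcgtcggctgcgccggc

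Before the results, the arrays themselves need a description. Signals at the 3′ and 5′ ends of the beta-actin transcript, read by control probe sets of the array, are compared to follow RNA integrity and labeling. Their log2 ratio was 0.66 to 0.70 on 7 arrays and 0.79 to 0.95 on the other 5, which were ZT9 mouse 1 (0.95), ZT15 mouse 3 (0.84) and all 3 ZT21 mice (0.79, 0.79 and 0.88). The same 3 arrays with the highest ratio, ZT9 mouse 1, ZT15 mouse 3 and ZT21 mouse 3, also lay together at one end of the first principal component, which held 39.0% of the variance. Without these 3 arrays, the higher ratio is left on ZT21 mouse 1 and ZT21 mouse 2 alone. In fits that leave the 3 out, ZT21 and the ratio thus cannot be told apart. Correlations between arrays were 0.970 to 0.994. No scan date or batch was given in the sources used here.

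Across the 4 times, 3 of the 22 tested probe sets (13.6%) had an adjusted p under 0.20 in limma's F-test, the false discovery rate used in the study's methods, against 473 of all 24546 (1.93%). They belonged to Tsc22d3, with 2 probe sets, and Errfi1, with 1. Probe sets of the same gene are not independent. With the probe sets of each gene averaged, 3 of the 10 genes passed. These were Fkbp5 (adjusted p 0.149), Tsc22d3 (0.186) and Errfi1 (0.193), and no count over all was taken for that fit. At an unadjusted p under 0.05 there were 12 of the 22, against 15.5% of all tested probe sets. The genes were chosen with earlier results of these data known, so the shares here and below are descriptions and no independent support. The highest mean of the day stood at ZT15 in 13 of the 22 (59.1%), against 24.1% of all tested probe sets, and the lowest at ZT21 in 10 of the 22 (45.5%), against 30%. The range between the highest and the lowest time had a median of 0.48 on the log2 scale for the 22 and 0.27 for all tested probe sets. The count of 3 probe sets depended on single mice. It was 0 without ZT3 mouse 2, ZT3 mouse 3, ZT15 mouse 2, ZT21 mouse 1 or ZT21 mouse 2, and 1 without ZT3 mouse 1 or ZT15 mouse 1. It was 2 without ZT9 mouse 2, 5 without ZT9 mouse 3, 7 without ZT15 mouse 3 and 10 without ZT9 mouse 1 or ZT21 mouse 3. The count over all tested probe sets also moved with the mouse left out, between 40 and 3025. This dependence on single mice was therefore not particular to the members, and it holds for the calls of single genes below too.

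**Figure D1:**
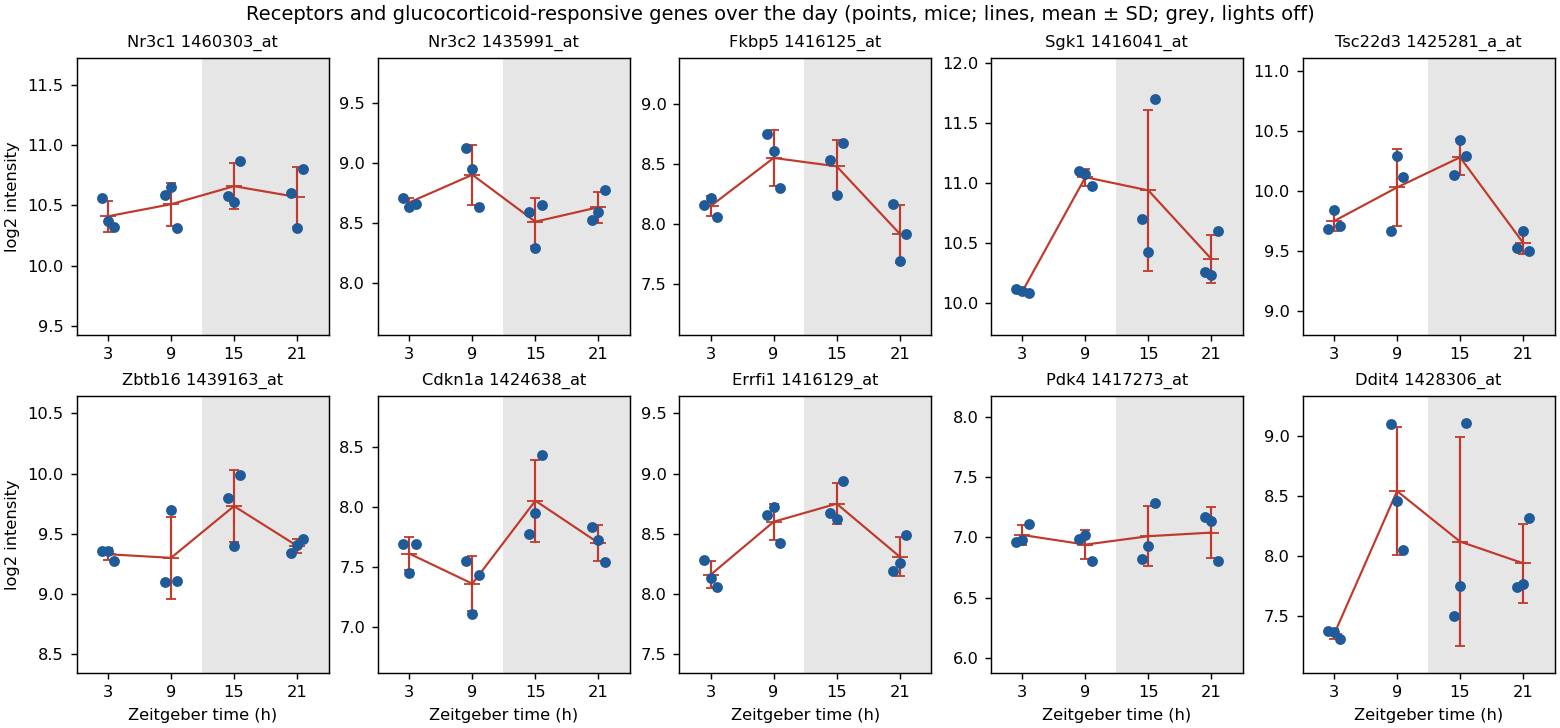
Log2 intensity (vertical axes, each spanning the same number of log2 units) against Zeitgeber time in hours for the brightest tested probe set of each gene. Points are single mice, red lines join the means with SD bars (n = 3), and grey marks lights off. Sgk1 had 3 mice near 10.10 at ZT3 and 3 at 10.98 to 11.10 at ZT9, while the Pdk4 means stayed within 0.10 of each other.

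Tsc22d3 encodes GILZ, a leucine zipper protein that glucocorticoids induce and that restrains inflammatory signaling. Its probe set 1420772_a_at had the smallest p of all members (place 102 of 24546). The values were 9.13, 9.16 and 9.09 at ZT3, 9.12, 9.80 and 9.29 at ZT9, 9.69, 9.68 and 9.77 at ZT15, and 8.84, 8.86 and 8.93 at ZT21. Each ZT15 mouse thus lay above each ZT3 and ZT21 mouse, while ZT9 mouse 1 lay among the ZT3 mice. The means were 9.13 ± 0.04, 9.40 ± 0.35, 9.72 ± 0.05 and 8.87 ± 0.05 at the 4 times (SD, n = 3). The range between ZT15 and ZT21 was 0.84 ± 0.14 (SE) on the log2 scale, or 1.79-fold, with an adjusted p of 0.108 by limma. This call was lost without ZT3 mouse 2 (adjusted p 0.271), ZT3 mouse 3 (0.245), ZT15 mouse 2 (0.219), ZT21 mouse 1 (0.267) or ZT21 mouse 2 (0.247). It was also lost with the replicate number as a block (0.205) and without limma's moderation of the variance (0.298).

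A further Tsc22d3 probe set, 1425281_a_at, followed the first closely, with a Pearson r of 0.94 over the 12 arrays. Its values were 9.68, 9.84 and 9.71 at ZT3, 9.67, 10.29 and 10.12 at ZT9, 10.13, 10.42 and 10.29 at ZT15, and 9.53, 9.67 and 9.50 at ZT21. The range was 0.71 ± 0.14 (SE), or 1.64-fold, between ZT15 and ZT21, with an adjusted p of 0.175. Here too ZT15 mice lay above all ZT3 and ZT21 mice, and ZT9 mouse 1 alone of its time lay among the dawn mice. The call was lost without any of 7 mice, ZT3 mouse 1 (0.241), 2 (0.379) or 3 (0.397), ZT15 mouse 1 (0.206) or 2 (0.299), and ZT21 mouse 1 (0.364) or 2 (0.279). It was also lost under quantile normalization (0.201), with no filter on dim probe sets (0.273), without moderation (0.356), and without the 2 arrays of highest Ttr, a choroid plexus marker (0.213). Probe set 1425557_x_at, whose suffix marks probes that can also bind other transcripts, had the same highest time, with means of 6.76, 7.16, 7.36 and 6.87 and an adjusted p of 0.227. It passed without ZT9 mouse 1 (0.154), ZT9 mouse 3 (0.186) or ZT21 mouse 3 (0.162). The fourth, 1444365_at, was dim, at 5.01 to 5.54 on all arrays, and had a range of 0.14 (adjusted p 0.796).

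Errfi1 encodes MIG-6, an inhibitor of the EGF receptor that feeds back on growth factor signaling. Probe set 1416129_at had 8.28, 8.13 and 8.06 at ZT3, 8.66, 8.72 and 8.42 at ZT9, 8.67, 8.62 and 8.94 at ZT15, and 8.19, 8.26 and 8.49 at ZT21. All ZT9 and ZT15 mice but ZT9 mouse 3 lay above all dawn mice, and that mouse lay just under ZT21 mouse 3. The range of 0.59 ± 0.12 (SE), or 1.51-fold, between ZT15 and ZT3 had an adjusted p of 0.175. It was lost without ZT3 mouse 1 (0.220), 2 (0.440) or 3 (0.423), ZT9 mouse 2 (0.231), ZT15 mouse 1 (0.219) or 2 (0.237), or ZT21 mouse 1 (0.328) or 2 (0.283). The call also ended when each array was centred on its median (0.210), with no filter on dim probe sets (0.248), with the replicate number as a block (0.326) and without limma's moderation (0.344). Probe set 1419816_s_at, with a range of 0.45 between ZT15 and ZT21, had an adjusted p of 0.305, passed without ZT9 mouse 1 (0.145), and correlated with the first at 0.48.

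Fkbp5 encodes FKBP51, a co-chaperone of Hsp90 that holds the glucocorticoid receptor in a state of low hormone affinity and is itself induced by the receptor. Probe set 1416125_at had 8.16, 8.22 and 8.06 at ZT3, 8.75, 8.61 and 8.30 at ZT9, 8.53, 8.24 and 8.67 at ZT15, and 8.17, 7.69 and 7.92 at ZT21. The 6 dusk mice, at 8.24 to 8.75, lay above the 6 dawn mice, at 7.69 to 8.22, with the nearest mice at 8.24 and 8.22. Its F-test gave an adjusted p of 0.216, which fell under 0.20 without ZT9 mouse 1 (0.163), ZT9 mouse 3 (0.156), ZT15 mouse 3 (0.183) or ZT21 mouse 3 (0.182). Probe set 1448231_at, designed from the same transcript accession, had 5.92, 5.94 and 5.97 at ZT3, 5.99, 6.03 and 6.14 at ZT9, 6.43, 6.15 and 6.13 at ZT15, and 5.73, 5.85 and 5.91 at ZT21. Here too the dusk mice, at 5.99 to 6.43, did not overlap with the dawn mice, at 5.73 to 5.97, with an F-test adjusted p of 0.245 that fell under 0.20 without ZT9 mouse 1 (0.164), ZT15 mouse 3 (0.192) or ZT21 mouse 3 (0.166). The third probe set, 1447736_at, lay at 2.67 to 2.89 and was too dim to test.

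Sgk1 encodes a serum- and glucocorticoid-regulated kinase that acts on ion channels and transporters. Its 1 probe set had 10.12, 10.10 and 10.09 at ZT3, 11.10, 11.08 and 10.98 at ZT9, 10.70, 10.43 and 11.70 at ZT15, and 10.26, 10.24 and 10.60 at ZT21. The 3 ZT9 mice were close together and above all ZT3 and ZT21 mice, while the ZT15 mice ran from 1 value among the ZT21 mice to the highest of all arrays. The range of 0.95 ± 0.25 (SE), or 1.93-fold, between ZT9 and ZT3 had an adjusted p of 0.227. The SD was 0.02, 0.07, 0.67 and 0.20 at the 4 times. Without ZT15 mouse 3 the adjusted p was 0.0371, without ZT9 mouse 1 it was 0.172, and without ZT21 mouse 3 it was 0.152.

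Ddit4 encodes REDD1, an inhibitor of mTORC1 that stress, low oxygen and glucocorticoids induce. It had 7.38, 7.37 and 7.31 at ZT3, 9.10, 8.46 and 8.05 at ZT9, 7.50, 7.75 and 9.11 at ZT15, and 7.74, 7.77 and 8.32 at ZT21. All 9 other mice lay above the 3 ZT3 mice, and the 2 highest, ZT15 mouse 3 and ZT9 mouse 1, were the 2 dusk mice with the high actin ratio. The range between ZT9 and ZT3 was 1.19 ± 0.37 (SE), or 2.28-fold, the widest of the 22 probe sets, but the F-test gave an adjusted p of 0.319, and 0.146 without ZT15 mouse 3. With the actin ratio as a covariate, a fit that called 1272 of all tested probe sets, the range was 0.79 and the adjusted p 0.195. Without the 3 arrays of highest actin ratio, where 5830 of all were called, the range was 0.91 and the adjusted p 0.0340. In that fit ZT21 and the ratio cannot be told apart.

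Set against dawn, no member passed at dusk at an adjusted p under 0.05, where 6 of all tested probe sets did (0.0244%, by limma). At an unadjusted p under 0.05, 9 of the 22 were higher at dusk (40.9%), against 8.47% of all tested probe sets, and 0 were lower, against 2.30%. These shares too are of genes chosen with earlier results of these data known. The 9 belonged to Sgk1, Ddit4, Tsc22d3, Fkbp5 and Errfi1, and neither receptor was among them. The difference was above 0 in 20 of the 22 (90.9%), against 64.5% of all, and its median was 0.16, against 0.05. Several of the further gene lists below also had most differences above 0. Under quantile normalization 15 of the 22 were above 0, with a median of 0.09, against a median of 0.00 over all, and 8 were higher at an unadjusted p under 0.05. The count above 0 was 16 to 21 when each array was left out in turn, lowest without ZT9 mouse 2 or ZT15 mouse 3, and 17 without the 3 arrays of highest actin ratio. The median was 0.09 without ZT9 mouse 2 and 0.32 without those 3 arrays. The count of 9 was 8 to 10 when each array was left out in turn, and 12 without those 3 arrays. Leaving those 3 out keeps the higher ratio at ZT21 alone, so dawn and the ratio are mixed there.

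Sgk1 lay at 10.43 to 11.70 in the 6 dusk mice and at 10.09 to 10.60 in the 6 dawn mice, a difference of 0.76 ± 0.17 (SE), or 1.70-fold (adjusted p 0.316). Without the 3 arrays of highest actin ratio, Sgk1 alone of the members passed, with a difference of 0.62 and an adjusted p of 0.0307. That fit cannot tell ZT21, a dawn time, apart from the ratio. Tsc22d3 1420772_a_at averaged 9.56 ± 0.28 at dusk and 9.00 ± 0.14 at dawn (SD over 6 mice, here and below), a 1.47-fold difference with the lowest adjusted p of the members, 0.181. Tsc22d3 1425281_a_at averaged 10.15 ± 0.26 at dusk and 9.66 ± 0.13 at dawn (adjusted p 0.30), and passed without ZT9 mouse 1 (difference 0.59, 0.0357). In both genes the dusk values overlapped with the dawn values, ZT9 mouse 1 being low in Tsc22d3 and ZT15 mouse 2 in Sgk1. Fkbp5 1416125_at averaged 8.52 ± 0.20 at dusk and 8.04 ± 0.20 at dawn, a 1.39-fold difference with an adjusted p of 0.316. Errfi1 1416129_at averaged 8.67 ± 0.17 at dusk and 8.23 ± 0.15 at dawn, a 1.35-fold difference with an adjusted p of 0.295. Ddit4 averaged 8.33 ± 0.68 at dusk and 7.65 ± 0.39 at dawn, with an adjusted p of 0.425. Both Fkbp5 probe sets, 2 of the 22 (9.09%), had all 6 dusk mice above all 6 dawn mice, as did 0.261% of all tested probe sets.

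**Figure D2:**
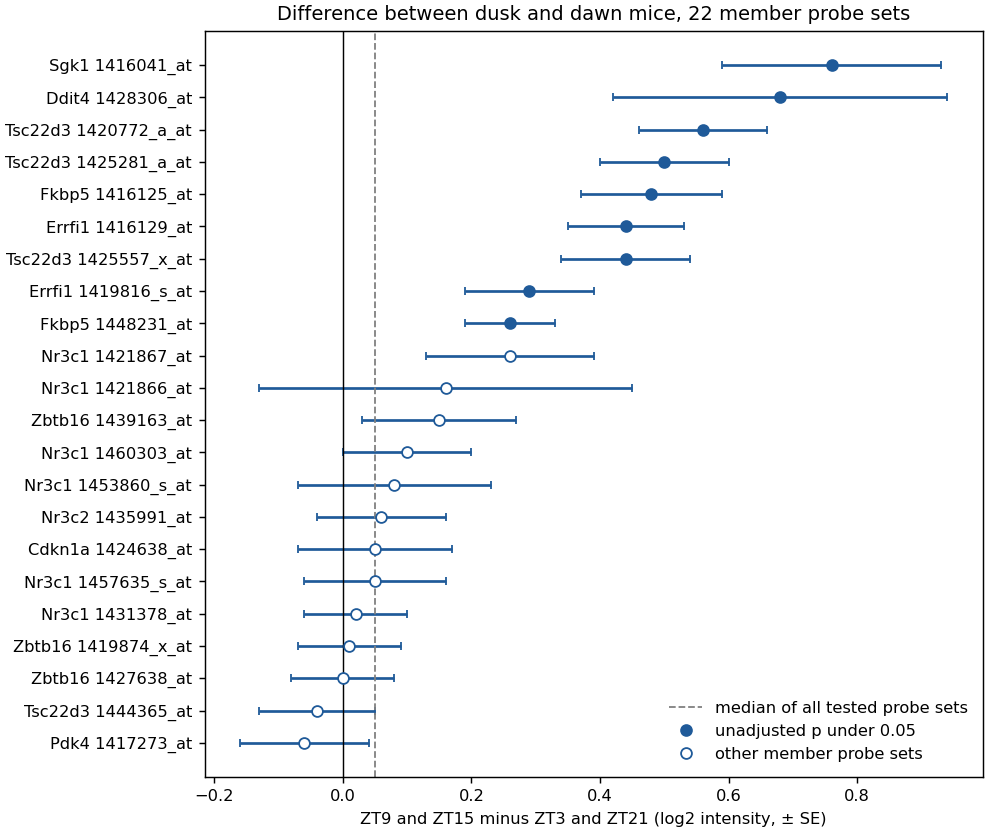
Difference between dusk mice (ZT9 and ZT15) and dawn mice (ZT21 and ZT3) in log2 intensity, with its SE, for the 22 tested probe sets, ordered by size. Filled points had an unadjusted p under 0.05 by limma, the dashed line marks the median of all tested probe sets (0.05), and the 9 filled points run between 0.26 and 0.76.

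The members were also read in the pairs of times 12 hours apart. For ZT15 minus ZT3, 0 members passed at an adjusted p under 0.05, against 54 of all (0.220%), and 9 of the 22 were higher at an unadjusted p under 0.05, against 9.85% of all. The lowest adjusted p was 0.0809, for Errfi1 1416129_at with a difference of 0.59 ± 0.12 (SE). That difference passed under quantile normalization (0.49, adjusted p 0.0486), and Tsc22d3 1420772_a_at passed without ZT9 mouse 2 (0.0314). No count over all tested probe sets was taken for this contrast in those settings, so these passes are not a result about the members. In 13 of the 22 (59.1%) all 3 ZT15 mice lay above all 3 ZT3 mice, against 15.1% of all tested probe sets. For ZT21 minus ZT9, 0 members passed, against 1 of all (0.00407%), while 7 of the 22 were lower at ZT21 at an unadjusted p under 0.05, against 9.07%, and 1 was higher, against 4.18%. Sgk1 had a difference of −0.69 ± 0.25 (SE) with an adjusted p of 0.292, and Fkbp5 1416125_at −0.63 ± 0.15 with 0.244. These contrasts share mice with the F-test and with dusk minus dawn, so they are not independent of them.

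The glucocorticoid receptor gene Nr3c1 gave no single pattern, because its 6 probe sets differed. The brightest, 1460303_at, had 10.56, 10.37 and 10.32 at ZT3, 10.59, 10.65 and 10.31 at ZT9, 10.58, 10.53 and 10.87 at ZT15, and 10.60, 10.31 and 10.80 at ZT21. All 4 times overlapped, and the range of 0.25 ± 0.15 (SE) had an adjusted p of 0.647. Probe set 1457635_s_at, which followed it at r = 0.81, had 9.89, 9.90 and 10.25 at ZT15 and 10.17, 9.87 and 10.19 at ZT21, against 9.81, 9.40 and 9.31 at ZT3 and 9.77, 9.76 and 9.47 at ZT9. All 6 dark mice lay above all 6 light mice, which held for 1 of the 22 probe sets (4.55%) and for 0.473% of all tested ones. The 5 arrays with the higher actin ratio were from dark mice except ZT9 mouse 1. They held 9.77 to 10.25 for this probe set and the others 9.31 to 9.90. The part of the ratio in this order was not tested. The difference between dark and light was 0.46 ± 0.11 (SE), with means of 10.04 and 9.59 and an adjusted p of 0.150, so it did not pass 0.05.

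The other Nr3c1 probe sets did not share this. For 1421866_at, dark mice averaged 8.06 and light mice 8.53, and it correlated with 1457635_s_at at −0.61. It had 8.44, 8.87 and 8.71 at ZT3, 7.45, 9.07 and 8.66 at ZT9, 8.86, 8.73 and 7.50 at ZT15, and 7.36, 7.79 and 8.11 at ZT21. The 5 arrays with the higher actin ratio held 7.36 to 8.11, and the 7 others 8.44 to 9.07. The share of all tested probe sets with such a separation was not taken, so it cannot be called particular to this probe set. Its range was 0.43 with the actin ratio as a covariate (adjusted p 0.707), and 1.29 without the 3 arrays of highest ratio (adjusted p 0.0286), a setting that called 5830 of all tested probe sets. Under that setting ZT21 cannot be told apart from the ratio. Probe sets 1421867_at and 1453860_s_at went with 1421866_at (r = 0.71 and 0.73), and 1431378_at lay at 6.08 to 6.55 with a range of 0.11. The F-test gave adjusted p-values of 0.241 to 0.854 over the 6 probe sets. It fell under 0.20 for 1457635_s_at without ZT9 mouse 1 (0.161) and for 1421867_at without ZT21 mouse 3 (0.195). Without the 3 arrays of highest actin ratio, 1421867_at (0.0717), 1453860_s_at (0.0930) and 1457635_s_at (0.187) passed as well.

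**Figure D3:**
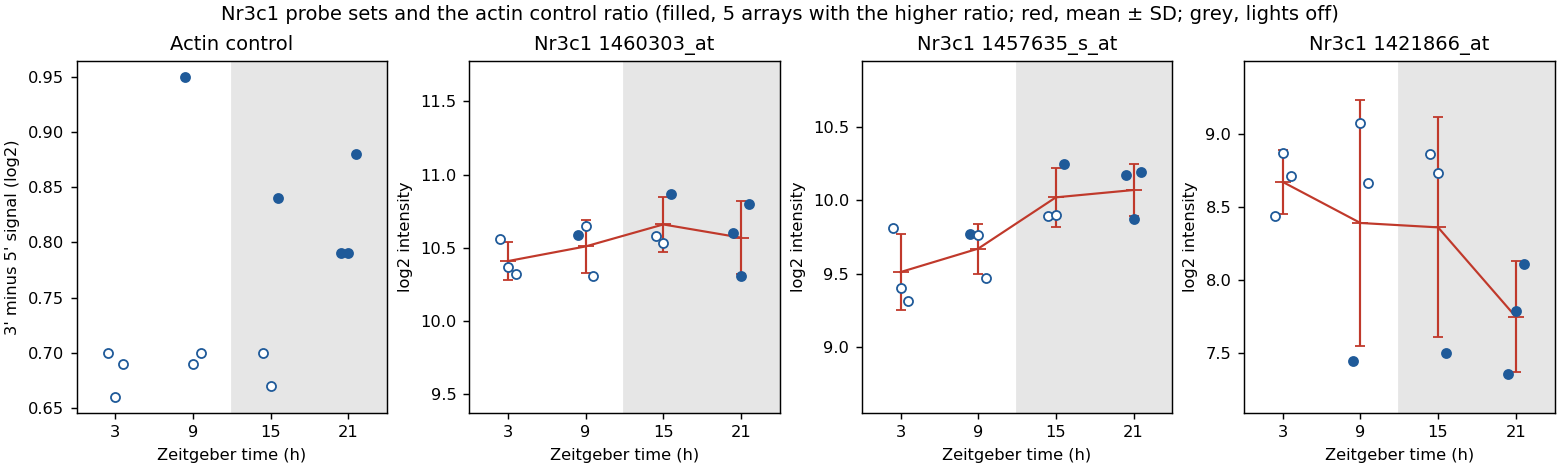
The log2 ratio of 3′ to 5′ actin control signal (left panel) and the log2 intensity of 3 Nr3c1 probe sets against Zeitgeber time in hours, single mice as points, red lines for means with SD (n = 3). Filled points are the 5 arrays with actin ratios of 0.79 to 0.95, which hold the 5 lowest values of 1421866_at (right panel, 7.36 to 8.11), and all 6 dark mice lie above all 6 light mice for 1457635_s_at.

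The mineralocorticoid receptor gene Nr3c2 had 8.71, 8.63 and 8.66 at ZT3, 9.12, 8.95 and 8.63 at ZT9, 8.59, 8.29 and 8.65 at ZT15, and 8.52, 8.59 and 8.77 at ZT21. Its highest mean was at ZT9 and its lowest at ZT15, a range of 0.39 ± 0.14 (SE) with an adjusted p of 0.363. Dark minus light was −0.22 ± 0.10 (SE), with means of 8.57 in dark mice and 8.79 in light mice, and an adjusted p of 0.317. The groups overlapped, since ZT21 mouse 3 lay above ZT3 mouse 1.

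In dark minus light, 0 members passed at an adjusted p under 0.05 (23 of all, 0.0937%, by limma). Most arrays with the higher actin ratio were from dark mice, and the part of that ratio in this contrast was not tested. At an unadjusted p under 0.05, 4 of the 22 were higher in the dark (18.2%), against 8.76% of all, and 1, Nr3c2, was lower (4.55%), against 6.58%. Besides Nr3c1 1457635_s_at the 4 were Cdkn1a 1424638_at and Zbtb16 1419874_x_at and 1427638_at. Cdkn1a encodes p21, an inhibitor of cyclin-dependent kinases, and had 7.77, 7.95 and 8.43 at ZT15 and 7.83, 7.72 and 7.54 at ZT21, against 7.69, 7.45 and 7.69 at ZT3 and 7.55, 7.11 and 7.43 at ZT9. Only ZT21 mouse 3, at 7.54, lay under some of the light mice. The difference was 0.39 ± 0.12 (SE) with an adjusted p of 0.209. Its F-test gave an adjusted p of 0.256, and 0.159 without ZT9 mouse 1 and 0.177 without ZT21 mouse 3. The other Cdkn1a probe set, 1421679_a_at, lay at 2.09 to 2.46 and was not tested.

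Zbtb16 encodes PLZF, a zinc finger repressor strongly induced by glucocorticoids in many tissues. Probe set 1427638_at had 7.79, 8.14 and 7.89 at ZT3, 7.62, 7.71 and 7.67 at ZT9, 8.18, 8.06 and 8.15 at ZT15, and 7.68, 7.88 and 7.97 at ZT21. The 3 ZT15 mice lay above all ZT9 and ZT21 mice, with a range of 0.46 ± 0.11 (SE) between ZT15 and ZT9 and an adjusted p of 0.241, or 0.148 without ZT21 mouse 3. Its dusk minus dawn difference was 0.00 ± 0.08 (SE), since its highest and its lowest mean both fell at dusk. The other Zbtb16 probe sets, 1439163_at and 1419874_x_at, also had the highest mean at ZT15 and the lowest at ZT9, with adjusted p-values of 0.379 and 0.402. All 3 Zbtb16 probe sets and Cdkn1a thus had their lowest mean at ZT9, the time of the highest mean of Sgk1, Ddit4 and the brighter Fkbp5 probe set.

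Pdk4 encodes a kinase that shuts down pyruvate dehydrogenase and that fasting and glucocorticoids induce in muscle and liver. It had 6.96, 6.98 and 7.11 at ZT3, 6.99, 7.02 and 6.80 at ZT9, 6.82, 6.93 and 7.29 at ZT15, and 7.17, 7.14 and 6.80 at ZT21. The times overlapped throughout. The range was 0.10 ± 0.14 (SE), with an adjusted p of 0.933, and dusk minus dawn was −0.06 ± 0.10, the lowest of the 22 probe sets.

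Deviations of single mice from the mean of their time were compared between the genes. With the mean of its time taken from each value, 7 of the 45 pairs of genes had an unadjusted p under 0.05 by an exact permutation test within times, and none had an adjusted p under 0.05. By Pearson r the closest pair was Nr3c1 and Errfi1, with r = 0.87 (exact permutation p 0.00694, adjusted 0.104), rho = 0.84 (0.0100, adjusted 0.113) and r = 0.93 without the 2 farthest mice. Of all tested probe sets, 2.92% were as close to this Nr3c1 probe set and 2.47% to this Errfi1 probe set. Sgk1 and Ddit4 had r = 0.85 (exact permutation p 0.0394, adjusted 0.253), rho = 0.89 (0.00926, adjusted 0.113) and r = 0.82 without the 2 farthest mice. This rho was the highest of the 45 pairs. As close to Sgk1 by r were 1.34% of all tested probe sets, and as close to Ddit4 4.25%. The smallest p stood with Nr3c1 and Sgk1, at r = 0.67 (exact permutation p 0.00231, adjusted 0.104), rho = 0.83 (0.00154, adjusted 0.0694) and r = 0.69 without the 2 farthest mice, where 21.8% of all tested probe sets were as close to Nr3c1 and 11.4% to Sgk1. ZT15 mouse 3 was the highest mouse of its time in both genes of the first 2 pairs, and it is one of the arrays with a high actin ratio, whose part was not tested.

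**Figure D4:**
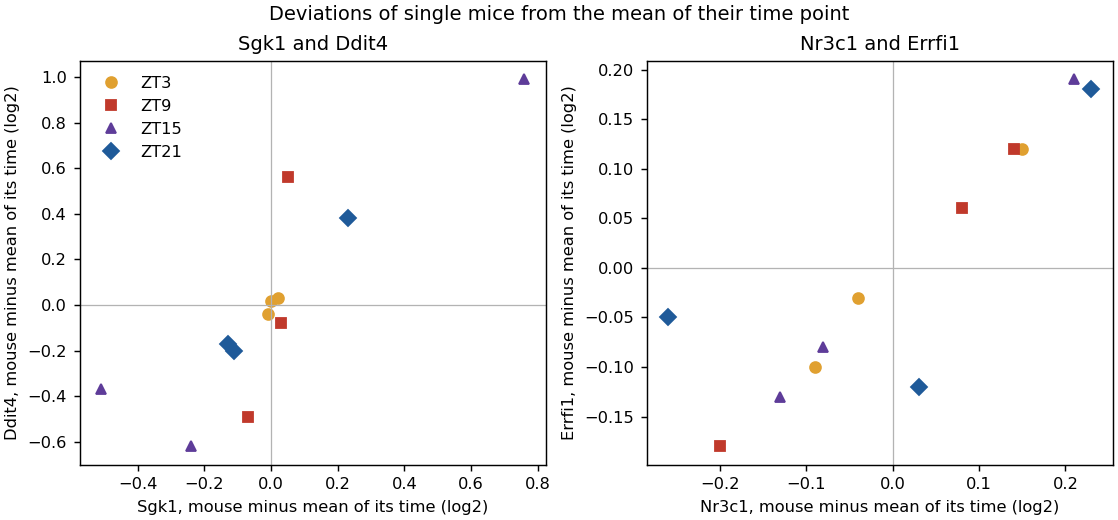
Each mouse's log2 intensity minus the mean of its time point, for Sgk1 (horizontal) and Ddit4 (vertical) at left and for Nr3c1 1460303_at and Errfi1 1416129_at at right, with a symbol for each time (n = 3). The points run together, with r = 0.85 at left and 0.87 at right, and the highest point at left is ZT15 mouse 3.

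Over all 12 arrays the probe sets most like Tsc22d3 1420772_a_at were those of Mobp (r = 0.95), Hnrnpa2b1 (0.94), Pde7a (0.924 and 0.893) and Pacrgl (0.901). The Mobp probe set was a different one from the brightest Mobp probe set, which is used among the oligodendrocyte markers and had an adjusted p of 0.526. Those most like Nr3c1 1460303_at were Gga2 (0.951), Mark1 (0.946), Mtf2 (0.945), Srsf1 (0.944) and Phf21a (0.942). They were picked as the highest correlations among the tested probe sets with 1 gene symbol and carry no test.

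The surrounding genes of the pathway were represented by their brightest probe sets, and calls were again read against the background of 1.93%, and counts at an unadjusted p under 0.05 against 15.5% of all tested probe sets. Among chaperones that fold and carry the receptors, 1 of 15 tested genes passed the F-test. Without adjustment it was 2 genes at p under 0.05, a share no larger than the background. The called gene was Hspa1b, an inducible Hsp70, with means of 9.34, 8.81, 10.27 and 9.15 at the 4 times (adjusted p 0.192). Dnajb1, an Hsp40 partner of it, had 10.01, 10.36, 10.74 and 10.39 (0.227), Fkbp4, which opposes FKBP51 on the receptor, 9.48, 9.41, 9.74 and 9.60 (0.346), and Cdc37 an adjusted p of 0.350. Of 12 receptor coregulators none passed (limma, adjusted p under 0.20). At an unadjusted p under 0.05 there were 2, Ep300 (adjusted p 0.266) and Crebbp (0.306), and Ncoa3 (0.364) and Hdac3 (0.417) came next. Of 5 other steroid receptor genes none passed either and 2 had an unadjusted p under 0.05, Esrra (adjusted p 0.292) and Esrrb (0.313), with Pgr at 0.484 and Esr1 at 0.705.

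Among genes of steroid metabolism and corticotropin-releasing hormone signaling, 1 of 5 passed. In the F-test 2 had an unadjusted p under 0.05, against 15.5% of all tested probe sets. Crh, the hypothalamic releasing hormone that cortical interneurons also make, had 8.89, 8.67 and 8.62 at ZT3, 8.43, 8.52 and 8.07 at ZT9, 8.82, 9.16 and 9.66 at ZT15, and 9.33, 9.36 and 9.33 at ZT21, with an adjusted p of 0.121. Its ZT9 mice lay under all others and its ZT21 mice above all ZT3 and ZT9 mice, so its highest mean was at ZT21 and its lowest at ZT9. The Crh receptor gene Crhr1 had 7.48, 7.58, 7.86 and 8.02 (0.216), the activating enzyme gene Hsd11b1 0.492 and the binding protein gene Crhbp 0.719. Of 5 genes that glucocorticoids repress 3 had an unadjusted p under 0.05 in the F-test and 2 passed. These 2 were Crh, which is in both lists, and Vcam1, an endothelial adhesion molecule with 7.74, 8.33, 8.35 and 8.18 (0.195). Ptgs2, the inducible cyclooxygenase, had 6.59, 6.52, 7.70 and 7.42 (0.210), and Tnf 0.431.

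Of 28 other genes that glucocorticoids induce, 5 had an unadjusted p under 0.05 in the F-test, against 15.5% of all tested probe sets. After adjustment 2 passed. Per1, a clock gene that is also in the clock list, had 6.81, 8.40, 8.70 and 8.13 (adjusted p 0.0488), and the glucose transporter gene Slc2a1 10.45, 10.94, 11.08 and 10.91 (0.156). Mertk (0.243) and Edn1 (0.269) came next. At dusk, 7 of the 28 were higher than at dawn at an unadjusted p under 0.05, against 8.47% of all tested probe sets. None was lower, against 2.30%. This list was likewise chosen with earlier results of these data known. The difference was above 0 in 23 of the 28, against 64.5% of all, and its median was 0.13, against 0.05. Of 16 family relatives of the members none passed the F-test of limma and 6 had an unadjusted p under 0.05, the nearest being Sgk2 (adjusted p 0.272), Tsc22d4 (0.277), Pdk3 (0.290) and Tsc22d2 (0.293). Of 19 partners in Sgk1 and Ddit4 signaling none passed and 4 had an unadjusted p under 0.05, Tsc1 (adjusted p 0.227), Nedd4 (0.259), Erbb4 (0.298) and Erbb3 (0.310). Dusk minus dawn was also above 0 in 13 of 15 chaperones, 11 of 12 coregulators, 16 of these 19 and 11 of the 16 relatives. It was so in 3 of 5 other steroid receptor genes, 2 of 5 of steroid metabolism and 2 of 5 repressed genes. At an unadjusted limma p under 0.05, 5 of the 16 relatives were higher at dusk and 1 was lower. A lean above 0 was thus not particular to induced genes. For scale, 7 of 12 clock genes passed, with Per2 at 6.28 at ZT3 and 9.35 at ZT15 (0.000419), Dbp at 9.36, 11.52, 11.33 and 11.10 (0.000503), Ciart (0.00203) and Bhlhe40 (0.0148), and the median range of the 12 was 0.92.

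Markers of the cell types in the tissue were read for the same contrast. Neuronal markers were bright on all arrays (mean level 11.84 to 12.20, 8 of 8 tested), as cortical tissue should show. At dusk minus dawn their median was 0.13, that of 8 astrocyte markers 0.12, of 9 oligodendrocyte markers 0.06, of 5 oligodendrocyte precursor markers 0.16, of 9 microglial markers 0.01 and of 5 meningeal markers 0.05. Those of 6 striatal markers (0.27, 6 of 6 above 0) and 3 choroid plexus markers (0.50, 3 of 3 above 0) were larger than the members' 0.16. Of 7 choroid plexus markers 4 were too dim to test. The brightest, Ttr, the transthyretin gene, had 10.92, 10.77 and 14.82 at ZT9 and 14.18, 11.10 and 11.20 at ZT15, against 10.53, 10.79 and 12.40 at ZT21 and 10.94, 9.85 and 9.22 at ZT3. ZT9 mouse 3 and ZT15 mouse 1 thus stood apart from the other mice of their times. Without these 2 arrays the members' median at dusk minus dawn was 0.17, with 18 of the 22 above 0 and 9 higher at an unadjusted p under 0.05. The medians were below 0 for 6 endothelial markers (−0.09), 4 pericyte and smooth muscle markers (−0.15) and 2 genes listed for the olfactory bulb (−0.03). That of 2 blood markers was 0.13. The olfactory bulb list held Tshz1 and Tbr1, and Tbr1 had means of 10.59 to 10.73. The bulb had been removed, and no bulb content was read from these genes. Cldn5, an endothelial tight junction gene, was the 1 marker called, with −0.81 at dusk minus dawn (adjusted p 0.0488). Gpr17 of the precursors (0.194) and Cldn5 (0.0602) passed the F-test. The part of the other cell types in the members' differences was not tested.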

How the data were processed

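Total RNA from the prefrontal cortex of single mice was labeled and hybridised to Affymetrix Mouse430_v2 arrays, 12 in all. The deposited table holds linear intensities: GCRMA values that the authors obtained from the scans in GeneSpring. The submitters' processing notes also name MAS5, used for detection calls that are not in the table. GCRMA corrects background and normalizes between arrays, and levels of different probe sets are not compared here. Values were taken as log2, after a floor of 1 that no value reached. After removal of controls 45037 probe sets were left, 34945 with 1 gene symbol in the array's annotation, 932 with several and 9160 with none. The 54.5% with the highest mean were tested, the lowest of which averaged 4.87. The number of arrays limits the precision.

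The 4 times were fitted with limma 3.58.1 under R 4.3.3 (lmFit, then eBayes). The F-test had a threshold of 0.20 and the contrasts of the same fit, two-sided, a threshold of 0.05, with Benjamini-Hochberg adjustment across every probe set tested. The calculations were tested on simulated data. Pairs of genes were compared within times by exact permutation (1296 arrangements). All probe sets of the 10 genes were named, with up to 4 genes of each further list by smallest F-test p and the 5 probe sets most like the first Tsc22d3 and the brightest Nr3c1 probe set. The 10 genes and the lists were chosen with earlier results of these data known. Alternatives were other scalings, filters, a pseudocount, priors, array weights, a replicate block, other statistics and arrays left out. Figures were drawn with matplotlib 3.10.9 in Python 3.11.15.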

Additional observations from a re-analysis of the deposited data

How the results depend on the processing

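The F-test over the 4 times called 3 of the 22 member probe sets and 473 of all. The members called were 10 under quantile normalization (2144 of all), 1 with no filter on dim probe sets (194), 8 among the brightest 30% (1353), 17 with array weights (14718), 0 without moderation (79) and 14 by multiclass SAM (7408). Median centring left the members within 1.5 times and called 252 of all. Choices made after seeing the data gave 14 members without the 3 arrays of highest actin ratio (5830 of all) and 8 with the actin ratio as a covariate (1272). The first of these leaves the higher ratio at ZT21 alone. Leaving out the 2 arrays of highest Ttr gave 2 members and 423 of all. Leaving out each array in turn gave 0 to 10 members and 40 to 3025 of all. The cause of these shifts was not tested.

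Of the dusk minus dawn contrast, 0 members became 9 with array weights (2834 of all, against 6), 1 without the 3 arrays of highest actin ratio (36) and 0 to 1 with each array left out (4 to 8 of all), and the brightest 30% gave 11 of all. Array weights gave 4 members for dark minus light, 6 for ZT15 minus ZT3 and 10 for ZT21 minus ZT9, against 0 each. Quantile normalization and the brightest 30% each gave 1 for ZT15 minus ZT3, and leaving out each array 0 to 1. Under the alternatives no count over all tested probe sets was taken for these contrasts. These member counts thus have no background beside them and are not a result about the members. No pair of genes passed with any array left out (0 to 0).

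With the replicate number as a block, 1 member and 91 of all passed the F-test, and no other member count changed. The numbers do not pair the mice: deviations of mice with the same number correlated at −0.50 to 0.49 (mean −0.04), and 3 of 12 arrays correlated best with their own number. Over 53 single results and 1186 alternatives, 1054 kept their side of the threshold, 102 gained a call and 30 lost one. No sign changed, which says little about stability. The range of the F-test cannot be negative, and contrasts were followed only at an unadjusted limma p under 0.05 in the main fit. With 3 mice per time, differences under the spread between mice were not detectable.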
